A study of Mus musculus with 3 samples.

Results

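Cholesterol and fatty acid synthesis was followed through 41 genes, picked by symbol for their place in sterol synthesis, in the SREBP system or in fatty acid synthesis, elongation, desaturation and activation. All 41 were found among the 23238 gene symbols of the count files. They also passed the filter on low values, a CPM (count scaled to the size of its library) of 1 or more in at least 1 library, which kept 13169 genes. By role, 8 genes act in the mevalonate pathway (Acat2, Hmgcs1, Mvk, Pmvk, Mvd, Idi1, Fdps, Ggps1) and 12 between squalene and cholesterol (Fdft1, Sqle, Lss, Cyp51, Tm7sf2, Lbr, Msmo1, Nsdhl, Hsd17b7, Ebp, Sc5d, Dhcr7). The SREBP system was represented by 6 genes (Srebf1, Srebf2, Scap, Insig1, Insig2, Stard4) and fatty acid synthesis by 6 (Acly, Acss2, Acaca, Acacb, Fasn, Me1). Elongation (Elovl1, Elovl5, Elovl6), desaturation (Fads1, Fads2, Fads3) and activation (Acsl1, Acsl3, Acsl4) had 3 genes each.

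The cells were c2c12, a mouse myoblast line that is immortalized, and RNA was taken after 2 days in myogenic induction medium with 2% horse serum. They lay on TCP (tissue culture plates), on GelMA hydrogels of 15% methacrylated gelatin, or on GelMA-PSS hydrogels, in which the 15% GelMA was mixed with 1% PSS, the sulfonated polymer poly sodium 4-styrenesulfonate. The comparisons ask how the heparin-mimicking PSS and the gelatin gel itself relate to expression. Each substrate has 1 library. No difference given here could be checked against replicates, and p-values were not computed. The libraries held 119799095 counts (TCP), 87071144 counts (GelMA) and 192171443 counts (GelMA-PSS), and the 41 genes held 0.395%, 0.364% and 0.321% of them. The lowest count of any of these genes was 111 in TCP, 111 in GelMA and 255 in GelMA-PSS, each for Acacb. A share of 3 counts, the limit that a count of 0 allows, corresponded to a CPM of 0.0246, 0.0330 and 0.0166. Intervals given are 95% exact or Wilson intervals for counting error alone. If each read of a pair was counted, they are narrower than they should be. It is not known whether this was done, but genes with a count of 2 outnumbered genes with a count of 1 in each library.

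As background, cells build cholesterol from acetyl-CoA through mevalonate, farnesyl diphosphate, squalene and lanosterol. The transcription factors SREBP1 and SREBP2, made from Srebf1 and Srebf2, are escorted by Scap out of the endoplasmic reticulum when sterols are low, and the Insig proteins hold them back when sterols are high. SREBP2 mainly drives sterol genes and SREBP1 mainly fatty acid genes, and a fusing myoblast needs both kinds of lipid for its membranes.

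The cell type was checked against marker genes. All 9 muscle markers passed the filter, with Myh3, an embryonic myosin heavy chain, the most abundant in TCP and GelMA and Mylpf, a myosin light chain, in GelMA-PSS. The CPM of Myh3 was 10182 in TCP, 6355 in GelMA and 3037 in GelMA-PSS. The early factor Myf5 had a CPM of 13.9 in TCP, 19.5 in GelMA and 36.5 in GelMA-PSS, and the fusion gene Tmem8c of 1029.8 in TCP, 773 in GelMA and 669.8 in GelMA-PSS. Summed over the 9 markers, CPM was 27339 in TCP, 19151 in GelMA and 18707 in GelMA-PSS. By count, 6 of the 9 were higher and 3 lower in GelMA-PSS than in GelMA (53.1% of all genes were higher), with Myh3 among the lower. After a correction for transcript length and GC content, described below, 3 were higher and 6 lower (50.2% higher). Against TCP 3 were higher and 6 lower in GelMA-PSS (47.2% of all genes were lower). None of the 7 adipocyte markers and none of the 3 endothelial markers passed the filter, and no adipocyte marker had a count above 8 in any library. Lep was at 0 counts in all 3 libraries. Of 4 macrophage markers only Cd68 passed, at a CPM of 1.53 in TCP, 1.71 in GelMA and 1.37 in GelMA-PSS, and Ptprc was at 0 counts in TCP and GelMA. Of 4 osteoblast markers only Bglap passed, at 3.26 in TCP, 1.47 in GelMA and 2.19 in GelMA-PSS, and Ibsp was at 0 counts in all 3 libraries. Of 5 fibroblast markers 4 passed, led by Col3a1 at 1907 in TCP, 3221 in GelMA and 2721 in GelMA-PSS, with Col1a1 at 119.7 in TCP, 168 in GelMA and 99.0 in GelMA-PSS and Dcn at 203 in TCP, 197 in GelMA and 259.6 in GelMA-PSS. Thy1 was at 0 counts in TCP and GelMA and at 2 in GelMA-PSS. In these bulk samples, fewer cells of a type and less RNA per cell cannot be told apart.

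None of the 41 genes differed by more than 2-fold in any of the 3 comparisons, computed from log2(CPM + 1), so that ratios of genes with low counts are damped. CPM was scaled with TMM factors, which set the libraries level over the bulk of genes. Among all genes tested, 1.00% passed 2-fold in GelMA against TCP, 4.10% in GelMA-PSS against GelMA and 6.85% in GelMA-PSS against TCP, and 1.37% were higher and 1.16% lower than both controls. The gene nearest the threshold was Ebp, -0.83 in GelMA against TCP. With a threshold of 1.5-fold, Ebp was the 1 gene lower in GelMA than in TCP, where 2.12% of all genes were lower. In GelMA-PSS against GelMA, Pmvk was higher (11.0% of all genes) and 2 genes, Fasn and Acaca, were lower (10.8%). In GelMA-PSS against TCP, Insig2 was higher (13.2%) and 6 genes were lower (11.5%), namely Ebp, Dhcr7, Acsl1, Fasn, Insig1 and Srebf1. Against both controls Fasn was the 1 gene lower by more than 1.5-fold (7.18%) and 0 were higher (8.08%). Read against these shares of all genes, the counts among the 41 genes lay near or below the background.

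The median log2 ratio of the 41 genes was -0.17 in GelMA against TCP, 0.05 in GelMA-PSS against GelMA and -0.09 in GelMA-PSS against TCP, beside -0.01, 0.03 and 0.04 over all genes. These comparisons share libraries, so their values are not independent. In GelMA-PSS, 14 genes lay above both controls (45.3% of all genes did), 15 below both (39.3%) and 12 between them (15.4%). TCP was the highest of the 3 libraries for 21 genes (29.0%), and GelMA the lowest for 18 (30.5%). The scaling matters for the comparisons with GelMA-PSS. With TPM scaling, in which counts are first divided by transcript length and no TMM factor is used, the median over all genes was -0.36 against GelMA and -0.31 against TCP, and with CPM without TMM factors it was -0.10 and -0.06. Relative to the all-gene median, the 41 genes were at -0.16, 0.01 and -0.13 in the 3 comparisons with TMM and at -0.15, -0.01 and -0.19 with TPM. Under 6 settings, 4 scalings and 2 corrections for transcript length and GC content, 38 of 41 genes kept their direction in GelMA against TCP. In GelMA-PSS against GelMA 17 did, and in GelMA-PSS against TCP 26 did.

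**Figure D1:**
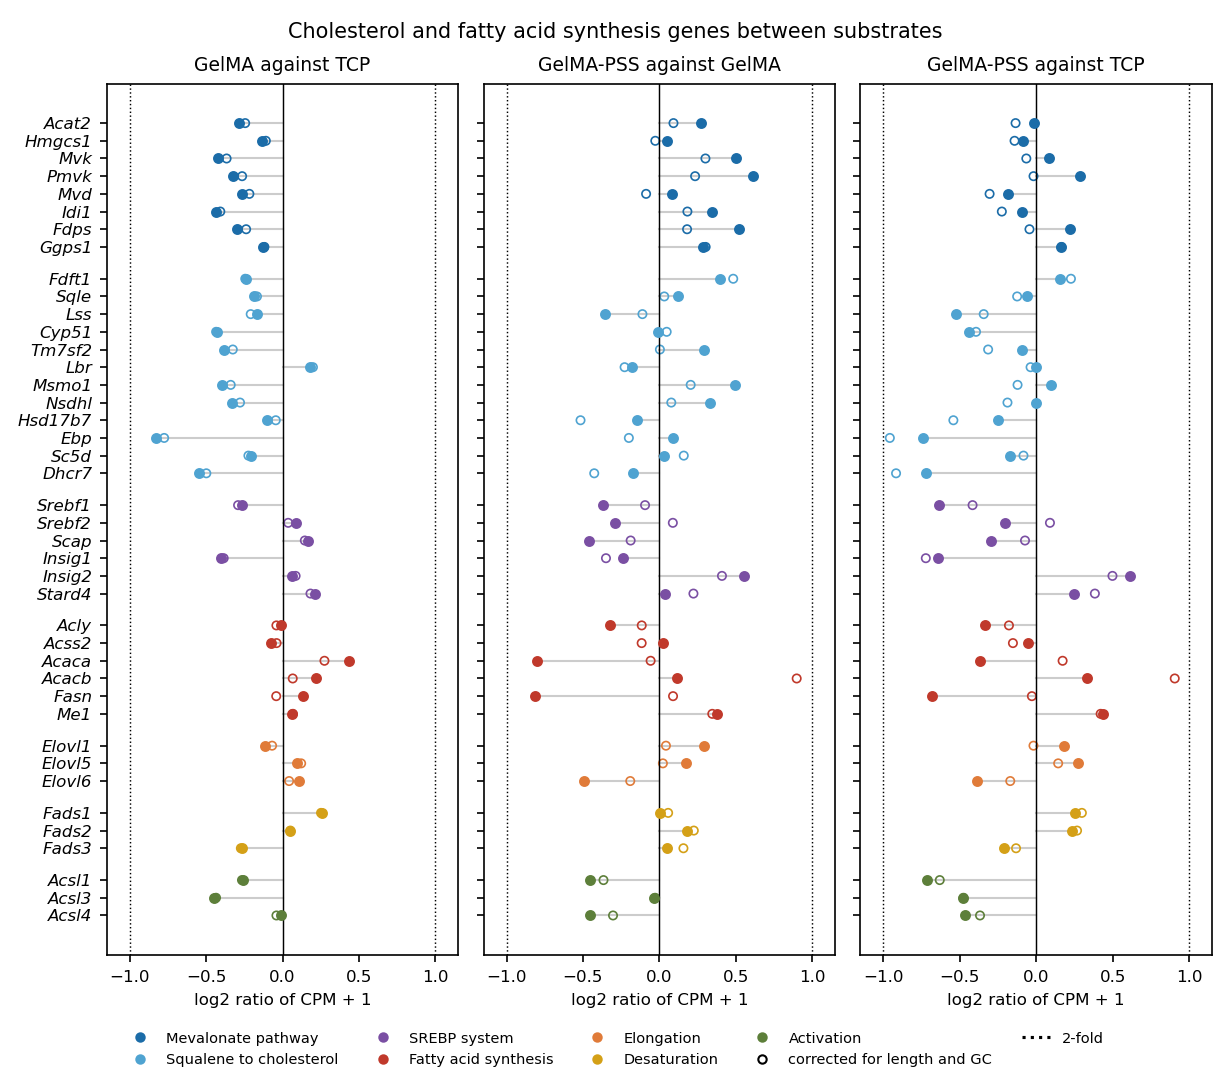
Log2 ratio of CPM + 1 (x axis) for each of the 41 genes (y axis, grouped and coloured by role) in the 3 comparisons, with filled points for the TMM-scaled ratio, open points for the ratio corrected for transcript length and GC content, and dotted lines at 2-fold. No filled point passes 2-fold, and 19 of the 20 sterol synthesis genes lie left of 0 in GelMA against TCP under every scaling and correction; in GelMA-PSS against GelMA only 17 of the 41 genes keep their direction under those settings.

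Transcript length went with the ratios and is given here because lengths differ widely among these genes. For 13055 genes a length was known, and over these the Spearman correlation of log2 ratio and length was 0.21 in GelMA against TCP, -0.66 in GelMA-PSS against GelMA and -0.50 in GelMA-PSS against TCP. Over the 41 genes it was 0.56, -0.64 and -0.25. These are correlations across genes, which are not replicates and which share the libraries. After the correction the values over the 41 genes were 0.42, 0.01 and 0.21. Ratios corrected for length and GC content are therefore given beside many of the values. In each role the genes with the highest and the lowest ratio of GelMA-PSS to the mean of the controls were named by rule, and all other members given with values were chosen after their values were seen.

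**Figure D2:**
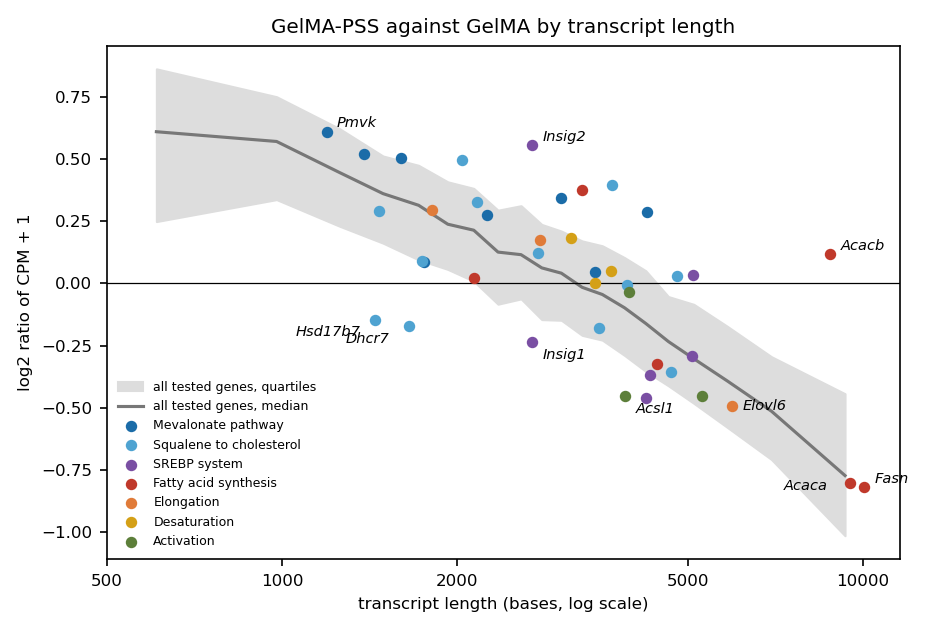
Log2 ratio of CPM + 1 in GelMA-PSS against GelMA (y axis) by transcript length in bases (x axis, log scale), with 1 point per gene coloured by role, and the median (line) and quartiles (band) of all tested genes in 20 bins of length. Fasn and Acaca lie with other long transcripts, while Acacb and Insig2 lie above and Dhcr7 and Hsd17b7 below the band; with TPM scaling Acacb changes sign.

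The sterol synthesis genes were lower on GelMA than on TCP. Of the 20 genes from Acat2 to Dhcr7, 19 had a lower CPM in GelMA than in TCP, against 51.7% of all genes, and their median log2 ratio was -0.29. The exception was Lbr, a nuclear envelope protein that is also a sterol reductase, at 0.18. The count was 19 of 20 under each scaling and each correction, and the corrected median was -0.24. Summed over the 20 genes, CPM was 1482 in TCP, 1187 in GelMA and 1389.5 in GelMA-PSS, so that GelMA held 80.1% and GelMA-PSS 93.8% of the TCP level. GelMA was the lowest library for 15 of the 20 genes (30.5% of all genes), for 13 after the correction (24.3%), 10 without TMM factors (21.4%) and 4 with TPM (9.48%). GelMA is also the library with the fewest counts, and 7 of the 9 muscle markers were lower there than in TCP, with a median of -0.33; Myod1 and Myf5 were higher. Of the 4 fibroblast markers tested 3 were higher in GelMA than in TCP, with a median of 0.49 and a summed CPM of 2236 in TCP, 3597 in GelMA and 3087 in GelMA-PSS. Whether depth or these markers had a part in the sterol gene ratios was not tested.

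In the mevalonate pathway all 8 genes were lower in GelMA than in TCP and all 8 were higher in GelMA-PSS than in GelMA, where 53.1% of all genes were higher. A low GelMA value enters both comparisons. The second count was 6 after the correction (50.2% of all genes) and 3 with TPM scaling (19.2%). Relative to the all-gene median it was 8 with TMM and 6 with TPM. The median log2 ratio in GelMA-PSS against GelMA was 0.31, and 0.18 after the correction. Against TCP, 4 genes were higher and 4 lower in GelMA-PSS (47.2% of all genes were lower), and 1 was higher and 7 lower after the correction (50.0%). When the longest transcript was used for the correction, 3 lay above and 5 below the all-gene median. Pmvk, phosphomevalonate kinase (chromosome 3, 89454541 to 89469013, plus strand in GRCm38), had the highest ratio of GelMA-PSS to the controls in this group. Its CPM was 25.9 in TCP, 20.5 in GelMA and 31.8 in GelMA-PSS. GelMA was the low library, and GelMA-PSS lay above TCP by 0.28, a difference that turned to -0.02 after the correction and also changed sign with TPM. Mvd, the decarboxylase that ends the mevalonate steps (chromosome 8, 122433601 to 122443422, minus strand), had the lowest ratio, with a CPM of 39.6 in TCP, 32.8 in GelMA and 34.8 in GelMA-PSS. TCP was highest, and the difference between GelMA-PSS and GelMA, 0.08, changed sign after the correction, with TPM and without TMM factors. Gm20388 overlaps Mvd over 9822 bases on the opposite strand, so its values are uncertain.

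Fdps, farnesyl diphosphate synthase, had the highest level per length of all 41 genes in each library, 173 CPM per kb in TCP, 141 in GelMA and 202 in GelMA-PSS. Its log2 ratio was -0.30 in GelMA against TCP and 0.52 in GelMA-PSS against GelMA, and GelMA was again lowest. The latter ratio was 0.18 after the correction and 0.05 with TPM. Its reads may be shared with Gm43738, which overlaps it on the same strand, so its values are uncertain. Hmgcs1, the HMG-CoA synthase and a classical SREBP target, had a CPM of 173 in TCP, 157 in GelMA and 163 in GelMA-PSS, a narrow range with TCP highest. Acat2, which joins acetyl-CoA units, may share reads with its close paralog Acat3 and is likewise uncertain. The log2 ratios of the 8 genes in GelMA against TCP ran from -0.44 for Idi1, the isopentenyl diphosphate isomerase, to -0.13 for Ggps1, the geranylgeranyl diphosphate synthase.

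From squalene to cholesterol, 11 of 12 genes were lower in GelMA than in TCP, with a median of -0.28. In GelMA-PSS 7 were higher and 5 lower than in GelMA, the former count being 4 without TMM factors and 1 with TPM scaling. Of all genes 53.1% were higher there, 41.3% without TMM factors and 19.2% with TPM, and relative to the all-gene median the count was 6 with TMM, 6 without TMM factors and 5 with TPM. Against TCP 9 of the 12 were lower in GelMA-PSS (47.2% of all genes), and 11 after the correction (50.0%); with the longest transcript, 10 lay below the all-gene median. In GelMA-PSS 4 of these genes lay below both controls (39.3% of all genes), and 5 after the correction (40.7%). Msmo1, the methylsterol monooxygenase (chromosome 8, 64718139 to 64733792, minus strand), had the highest ratio to the controls, with a CPM of 63.7 in TCP, 48.2 in GelMA and 68.3 in GelMA-PSS. GelMA was low, and the small excess of GelMA-PSS over TCP, 0.10, changed sign after the correction, with TPM and without TMM factors. Dhcr7, a sterol reductase late in the pathway (chromosome 7, 143823145 to 143848410, plus strand), had the lowest, with a CPM of 93.2 in TCP, 63.4 in GelMA and 56.1 in GelMA-PSS. TCP was high and GelMA-PSS lowest, at log2 ratios of -0.55 for GelMA and -0.72 for GelMA-PSS against TCP. The latter was -0.92 after the correction and -0.82 when the longest transcript was used for it.

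Ebp, the sterol isomerase (chromosome X, 8185329 to 8193512, minus strand), had the ratio farthest from 0 among the 41 genes in the 3 comparisons. Its CPM was 114 in TCP, 63.7 in GelMA and 67.9 in GelMA-PSS. TCP stood above both hydrogels, which were close to each other. The log2 ratio against TCP was -0.83 for GelMA (95% exact interval of the count ratio -0.88 to -0.79) and -0.74 for GelMA-PSS (-0.78 to -0.71). The corrected ratios were -0.77 and -0.96, and the latter passed 2-fold when the longest transcript was used. Of all tested genes, 0.607% had a lower ratio in GelMA against TCP. Between the hydrogels the Ebp ratio was 0.09, and its sign changed under TPM, CPM without TMM factors and both corrections.

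The other sterol genes varied in pattern. Cyp51, the lanosterol demethylase, had a CPM of 117 in TCP, 86.8 in GelMA and 86.3 in GelMA-PSS. It resembled Ebp in that TCP was high and the hydrogels were level. Lss, which makes lanosterol, had a CPM of 49.1 in TCP, 43.6 in GelMA and 33.8 in GelMA-PSS, with GelMA-PSS lowest at -0.53 against TCP. That ratio was -0.34 after the correction, and the one against GelMA, -0.36, turned to 0.10 with the longest transcript. Hsd17b7, a sterol ketoreductase, had a CPM of 25.2 in TCP, 23.3 in GelMA and 21.0 in GelMA-PSS. Its ratio of -0.25 against TCP became -0.54 after the correction, which rests on a transcript of 1446 bases, and -0.21 with the longest transcript. Lbr stood alone among the 20 in having GelMA as the high library, with a CPM of 22.9 in TCP, 26.1 in GelMA and 22.9 in GelMA-PSS. Tm7sf2, the related sterol reductase, had a CPM of 11.3 in TCP, 8.41 in GelMA and 10.5 in GelMA-PSS, with GelMA lowest, and it overlaps Vps51 on the same strand, so its values are uncertain. After the correction 18 of the 20 sterol synthesis genes lay lower in GelMA-PSS than in TCP (50.0% of all genes), against 13 without it (47.2%). With the longest transcript, 15 of the 20 lay below the all-gene median.

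**Figure D3:**
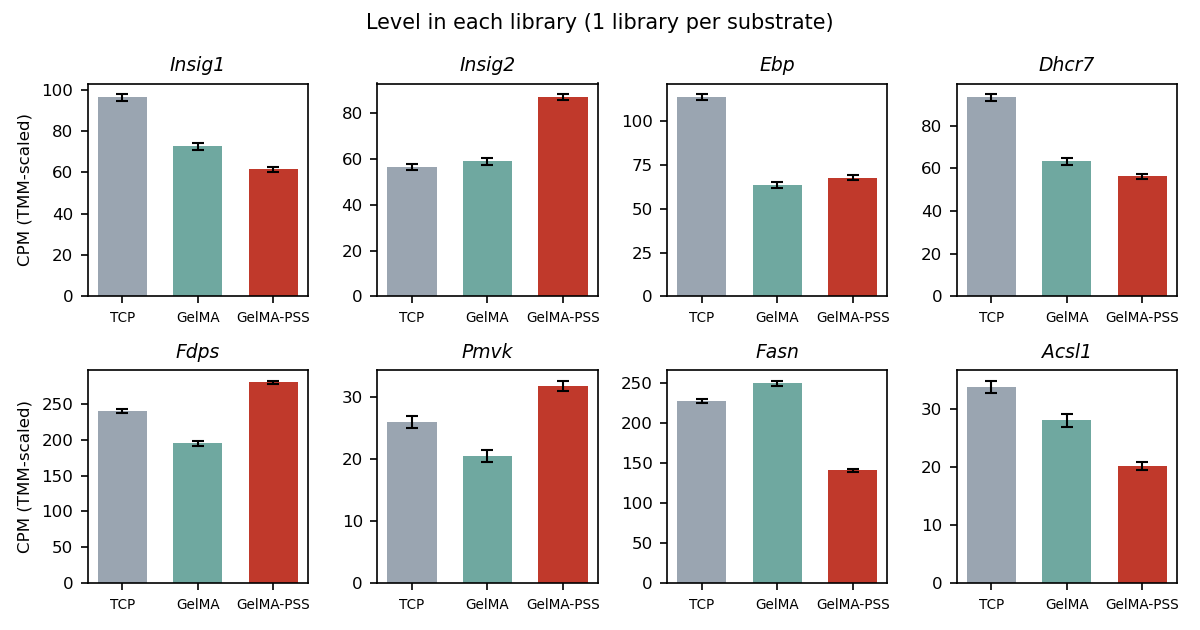
TMM-scaled CPM (y axis, from 0) of 8 genes in the 3 libraries (x axis), with 1 bar per library and 95% Wilson intervals for counting error only. Insig1 and Insig2 run in opposite order, Ebp and Dhcr7 are highest in TCP, Fdps and Pmvk are lowest in GelMA, and Fasn and Acsl1 are lowest in GelMA-PSS; the order of Fdps and Pmvk between TCP and GelMA-PSS changes with TPM scaling and after the length correction, and for Fasn the difference between GelMA-PSS and GelMA changes sign after that correction.

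In the SREBP system the 2 Insig genes ran in opposite directions. Insig2 (chromosome 1, 121304353 to 121332589, minus strand), an endoplasmic reticulum anchor that retains the Scap and SREBP complex, had a CPM of 56.4 in TCP, 59.0 in GelMA and 87.0 in GelMA-PSS. GelMA-PSS stood above both controls, by 0.55 over GelMA (0.52 to 0.61) and 0.62 over TCP (0.58 to 0.67). Insig1 (chromosome 5, 28071363 to 28078662, plus strand), its paralog and itself an SREBP target, had a CPM of 96.3 in TCP, 72.5 in GelMA and 61.4 in GelMA-PSS. Here TCP was highest and GelMA-PSS lowest, at -0.64 against TCP (-0.69 to -0.61). Both genes kept these directions under all scalings and corrections, but the sizes of their ratios did not hold. Those of Insig2 were 0.41 over GelMA and 0.50 over TCP after the correction, and 0.09 and 0.20 with TPM. The Insig1 ratio against TCP was -0.72 after the correction and -1.04 with TPM, past 2-fold. With TPM the all-gene median against TCP was -0.31. The chosen transcripts of both genes measure 2697 bases, so their counts can be set against each other within a library, free of scaling. Insig1 counts were 1.71 (1.66 to 1.76) times those of Insig2 in TCP, 1.23 (1.19 to 1.28) times in GelMA and 0.705 (0.688 to 0.723) times in GelMA-PSS, with 95% exact intervals. Insig1 was thus the more abundant transcript in TCP and GelMA, and Insig2 in GelMA-PSS, and the 3 counting intervals did not overlap.

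Srebf1 (chromosome 11, 60199089 to 60222581, minus strand), the source of SREBP1, had the lowest ratio of this group, with a CPM of 121 in TCP, 101 in GelMA and 77.7 in GelMA-PSS. It stepped down from TCP to GelMA to GelMA-PSS, and its ratio of -0.64 against TCP was -0.42 after the correction. The ratio of GelMA-PSS against GelMA, -0.37, was -0.09 after it. Srebf2, the source of SREBP2, had a CPM of 351 in TCP, 374 in GelMA and 305 in GelMA-PSS. Its ratio of GelMA-PSS against GelMA, -0.29, turned to 0.09 after the correction. Per length, Srebf1 had 0.408 (0.400 to 0.416) times the counts of Srebf2 in TCP, 0.318 (0.310 to 0.325) times in GelMA and 0.301 (0.295 to 0.307) times in GelMA-PSS. Srebf2 was the more abundant in every library, and the ratio was highest in TCP. Scap, the escort protein, had a CPM of 53.1 in TCP, 59.7 in GelMA and 43.1 in GelMA-PSS, highest in GelMA and lowest in GelMA-PSS. In GelMA-PSS its ratios of -0.46 against GelMA and -0.29 against TCP were -0.19 and -0.07 after the correction. Stard4, a cytosolic sterol carrier, had a CPM of 11.8 in TCP, 13.9 in GelMA and 14.3 in GelMA-PSS, with TCP lowest. The direction of its ratio of GelMA-PSS against TCP, 0.25, did not hold under all scalings and corrections. Against GelMA the counting interval of Stard4 in GelMA-PSS included 0. Of the 6 genes, 2 lay above (45.3% of all genes) and 4 below both controls (39.3%) in GelMA-PSS, and 3 above (40.9%) and 3 below (40.7%) after the correction.

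Of the 15 genes that make, lengthen, desaturate or activate fatty acids, 8 were higher (48.3% of all genes) and 7 lower (51.7%) in GelMA than in TCP. In GelMA-PSS 8 were higher than in GelMA (53.1%), or 5 without TMM factors (41.3%) and 0 with TPM (19.2%), and 6 lay above (45.3%) and 7 below (39.3%) both controls. Relative to the all-gene median, 6 of the 15 were higher in GelMA-PSS than in GelMA with TMM and 5 with TPM. Their summed CPM, not corrected for length, was 94.4% in GelMA and 83.1% in GelMA-PSS of that in TCP. After the correction their median ratio of GelMA-PSS against TCP was -0.03. Then 5 lay above (40.9% of all genes) and 6 below (40.7%) both controls. In fatty acid synthesis the genes with the longest transcripts, Fasn and Acaca, were lowest in GelMA-PSS. Fasn, the fatty acid synthase (chromosome 11, 120805846 to 120824547, minus strand), had the lowest ratio to the controls of all 41 genes, with a CPM of 228 in TCP, 249.8 in GelMA and 141 in GelMA-PSS. Against GelMA it was at -0.82 and against TCP at -0.68 on the log2 scale, and after the correction for its 10050 bases these became 0.09 and -0.03. Acaca, the acetyl-CoA carboxylase that makes malonyl-CoA, had a CPM of 63.6 in TCP, 86.2 in GelMA and 49.0 in GelMA-PSS. GelMA was high and GelMA-PSS low, at -0.80, and for its 9513 bases the corrected ratio was -0.06. Against TCP its ratio of -0.37 turned to 0.17 after the correction, and an overlap with Gm11437 on the opposite strand makes it uncertain. The uncorrected ratios of both genes in GelMA-PSS against GelMA passed 2-fold with TPM scaling, and the sign of the Fasn ratio turned with the correction.

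Acacb, the carboxylase at the mitochondrial surface, departed from this, although its transcript has 8788 bases. It had a CPM of 0.912 in TCP, 1.22 in GelMA and 1.41 in GelMA-PSS, from counts of 111, 111 and 255, and passed the filter only through the hydrogel libraries. Its counts per length were 0.0155 times those of Acaca in TCP, 0.0153 times in GelMA and 0.0311 times in GelMA-PSS. The ratio was thus alike in the controls and higher in GelMA-PSS, where Acaca was low, with Acaca far more abundant throughout. Since Acacb passed the filter through the libraries in which it is high, its differences from TCP are uncertain. Its corrected ratio of GelMA-PSS against GelMA was 0.90, while the uncorrected 0.12 changed sign with TPM.

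Me1, the cytosolic malic enzyme that yields NADPH (chromosome 9, 86581371 to 86695953, minus strand), had the highest ratio of this group, with a CPM of 55.3 in TCP, 57.7 in GelMA and 75.3 in GelMA-PSS. GelMA-PSS was high and the controls were level, at 0.38 against GelMA and 0.44 against TCP, the former changing sign with TPM and the latter keeping its sign. After the correction these ratios were 0.35 and 0.42. Acly, the ATP citrate lyase that supplies cytosolic acetyl-CoA, had a CPM of 179 in TCP, 178 in GelMA and 142 in GelMA-PSS, with GelMA-PSS lowest. The Acly ratios of -0.32 against GelMA and -0.33 against TCP were -0.12 and -0.18 after the correction. Acss2, which makes acetyl-CoA from acetate, had a CPM of 17.6 in TCP, 16.6 in GelMA and 16.9 in GelMA-PSS, and its counting intervals included 0 in all 3 comparisons. It overlaps Gss on the opposite strand over 22544 bases, and whether counting used the strand is not given in the sources used here, so its values are uncertain.

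The elongases, which add carbons to fatty acids, were split. Elovl1 (chromosome 4, 118428093 to 118432953, plus strand), which acts on very long chains, had a CPM of 82.5 in TCP, 76.2 in GelMA and 93.6 in GelMA-PSS. GelMA-PSS was highest, at 0.29 against GelMA and 0.18 against TCP, but both signs turned with TPM and the latter also after the correction. Elovl6 (chromosome 3, 129532355 to 129638495, plus strand), which lengthens palmitate, had a CPM of 22.8 in TCP, 24.6 in GelMA and 17.2 in GelMA-PSS and was lowest in GelMA-PSS, at -0.49 against GelMA. Its transcript has 5951 bases, and the corrected ratio was -0.19. Elovl5, which acts on polyunsaturated chains, had a CPM of 38.2 in TCP, 40.8 in GelMA and 46.3 in GelMA-PSS. Per length, the counts of Elovl6 were 0.279 (0.266 to 0.292) times those of Elovl5 in TCP, 0.281 (0.267 to 0.297) times in GelMA and 0.174 (0.167 to 0.181) times in GelMA-PSS. The controls overlapped in this ratio and GelMA-PSS lay below them, with transcripts of unequal length (5951 and 2782 bases). The trend of ratios with length is not removed from it. In GelMA-PSS against GelMA, Elovl6 was at -0.49 and Elovl5 at 0.18, and after the correction at -0.19 and 0.02, closer together.

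The desaturases differed little, with corrected medians of 0.16 in GelMA-PSS against GelMA and 0.27 against TCP. Fads2 (chromosome 19, 10062765 to 10101746, minus strand), which introduces the first double bond in polyunsaturated fatty acid synthesis, had a CPM of 52.7 in TCP, 54.6 in GelMA and 62.1 in GelMA-PSS. GelMA-PSS was highest by 0.23 over TCP, a sign that turned with TPM. Fads1, which acts after it, had a CPM of 58.3 in TCP, 69.7 in GelMA and 69.8 in GelMA-PSS. Both hydrogels lay above TCP and were level with each other, and the sign of GelMA-PSS against TCP, 0.26, likewise turned with TPM. Per length, Fads1 had 1.01 (0.972 to 1.04) times the counts of Fads2 in TCP, 1.16 (1.12 to 1.21) times in GelMA and 1.02 (0.998 to 1.05) times in GelMA-PSS, so that the pair was nearly equal in TCP and GelMA-PSS. Fads3 (chromosome 19, 10041569 to 10060110, plus strand), the third gene of the cluster on chromosome 19, had a CPM of 395 in TCP, 329 in GelMA and 341 in GelMA-PSS, with TCP highest. It was the most abundant desaturase per length, at 107 CPM per kb in TCP, 89.2 in GelMA and 92.4 in GelMA-PSS.

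The 3 acyl-CoA synthetases among the 41 genes, which activate fatty acids by joining them to CoA, had their lowest level in GelMA-PSS (39.3% of all genes did). The direction against GelMA and TCP held for each of them under all scalings and corrections. Below both controls lay 72.3% of all genes with TPM and 49.4% without TMM factors, so a kept direction there is common. Relative to the all-gene median with TPM, all 3 lay lower in GelMA-PSS in both comparisons. The corrected median ratio of GelMA-PSS to the controls' mean was -0.34, beside a value near 0 over all genes. Acsl1 (chromosome 8, 46471037 to 46536051, plus strand) had the lowest ratio, with a CPM of 33.9 in TCP, 28.1 in GelMA and 20.3 in GelMA-PSS. It stepped down from TCP to GelMA to GelMA-PSS, reaching -0.71 against TCP and -0.63 after the correction. Acsl3 (chromosome 1, 78657825 to 78707743, plus strand), found on lipid droplets and the endoplasmic reticulum, had a CPM of 297 in TCP, 217 in GelMA and 212 in GelMA-PSS. Here the hydrogels were nearly level and TCP was high, and reads may be shared with Utp14b, which overlaps it on the same strand. Acsl4, which prefers arachidonate, had a CPM of 189 in TCP, 187 in GelMA and 136 in GelMA-PSS. The controls were level, and GelMA-PSS lay at -0.47 against TCP and -0.37 after the correction. Of their relatives outside the 41 genes, chosen after their values were seen, Acsl6 was also lowest in GelMA-PSS, with a CPM of 69.5 in TCP, 56.9 in GelMA and 53.7 in GelMA-PSS, although its ratio of GelMA-PSS against GelMA, -0.08, turned to 0.22 after the correction, and Acsl5 was highest there, with a CPM of 46.0 in TCP, 53.5 in GelMA and 60.6 in GelMA-PSS.

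Other genes of lipid metabolism were described through lists, with the same background of 45.3% above and 39.3% below both controls. After the correction this background was 40.9% above and 40.7% below. Among 11 genes of sterol export and storage, 3 lay above and 6 below both controls in GelMA-PSS, and 3 and 4 after the correction, with 1 above with TPM (15.2% of all genes). Abca1, the exporter of cholesterol to apolipoproteins, had a CPM of 4.21 in TCP, 11.5 in GelMA and 3.90 in GelMA-PSS, a level in GelMA past 2-fold above both other libraries, although the corrected ratio of GelMA-PSS against GelMA was -0.56. Apoe, an apolipoprotein, had a CPM of 6.87 in TCP, 17.2 in GelMA and 18.6 in GelMA-PSS, and both hydrogels lay above TCP by more than 2-fold. Cyp27a1, a sterol hydroxylase, had a CPM of 2.50 in TCP, 1.24 in GelMA and 0.718 in GelMA-PSS, highest in TCP. Among 21 tested genes of fatty acid oxidation, 13 lay above and 4 below both controls. After the correction 8 lay above (40.9% of all genes) and 8 below (40.7%), and with TPM 4 lay above (15.2%). The largest ratios there were those of Etfb, an electron transfer flavoprotein subunit, at 44.8 in TCP, 46.8 in GelMA and 72.7 in GelMA-PSS, of Acadm, the medium-chain acyl-CoA dehydrogenase, at 85.6 in TCP, 87.2 in GelMA and 132 in GelMA-PSS, and of Decr1, a dienoyl-CoA reductase, at 47.0 in TCP, 48.3 in GelMA and 71.0 in GelMA-PSS. Each was highest in GelMA-PSS. In the order given, their ratios to the controls' mean were 0.66, 0.60 and 0.57. After the correction they were 0.22, 0.40 and 0.44, so that Etfb was the lowest of these genes. Among 19 tested genes of fatty acid uptake and storage, 10 lay above and 8 below both controls, and 8 and 8 after the correction, with 2 above with TPM (15.2% of all genes). Fabp5, a fatty acid binding protein, had a CPM of 19.3 in TCP, 29.8 in GelMA and 74.8 in GelMA-PSS and was the 1 gene of these lists past 2-fold above both controls, with a corrected ratio of 0.70 against GelMA. Cd36, a fatty acid uptake receptor, had a CPM of 53.9 in TCP, 27.6 in GelMA and 20.7 in GelMA-PSS, and Plin4, a lipid droplet coat protein, of 8.09 in TCP, 4.16 in GelMA and 2.73 in GelMA-PSS. Both were highest in TCP and lowest in GelMA-PSS. In GelMA-PSS against GelMA the Plin4 ratio of -0.47 was -0.02 after the correction, and the Cd36 ratio of -0.40 was -0.54.

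Promoter windows were compared because the sterol genes lay lower together in GelMA against TCP and the Insig genes apart in GelMA-PSS. RefSeq windows on GRCm38.p6, of 300 bases of which 250 lie before a transcription start, were matched for 36 of the 41 genes (47 windows); Fdps, Fdft1, Sqle, Stard4 and Fads1 were not used here. The motifs searched on both strands were CCAAT (reverse complement ATTGG), the E-box CACGTG and the sterol element TCACNCCAC; none of them contains another, but CCAAT and ATTGG can share bases. CCAAT was found for 30 of the 36 genes, or 83.3%, against 41.1% of all 27025 genes with a window, and in 66.0% of their windows against 37.4% of all windows. Among 17 sterol synthesis genes it was found for 16, or 94.1%. CACGTG was found for 6 of the 36 genes (16.7%, against 8.09%) and TCACNCCAC for 2, Hmgcs1 and Acsl1 (5.56%, against 1.44%). The background shares cover all genes with a window, whether or not they passed the filter on low values, which all 41 genes passed. Shares among genes that passed it were not computed, so the excess cannot be assigned to the roles of these genes. A match describes the letters of a window and is not evidence of a bound site. Shown are the windows of Hmgcs1, which holds TCACNCCAC, at chr13:119690101-119690400 on the plus strand, of Ebp, the gene with the most negative ratio, at chrX:8193463-8193762 on the minus strand, and of the Insig pair, which ran apart. The Insig1 window lies at chr5:28071162-28071461 on the plus strand and the Insig2 window, 1 of 3, at chr1:121332540-121332839 on the minus strand. Sequences run 5′ to 3′ on the strand of the gene, with capitals marking the motifs.
Hmgcs1: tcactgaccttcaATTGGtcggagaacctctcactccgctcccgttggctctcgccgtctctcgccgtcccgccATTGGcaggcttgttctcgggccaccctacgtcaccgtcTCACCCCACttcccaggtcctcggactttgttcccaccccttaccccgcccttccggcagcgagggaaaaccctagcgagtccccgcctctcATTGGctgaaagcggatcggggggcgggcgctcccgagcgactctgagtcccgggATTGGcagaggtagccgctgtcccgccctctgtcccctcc
Ebp: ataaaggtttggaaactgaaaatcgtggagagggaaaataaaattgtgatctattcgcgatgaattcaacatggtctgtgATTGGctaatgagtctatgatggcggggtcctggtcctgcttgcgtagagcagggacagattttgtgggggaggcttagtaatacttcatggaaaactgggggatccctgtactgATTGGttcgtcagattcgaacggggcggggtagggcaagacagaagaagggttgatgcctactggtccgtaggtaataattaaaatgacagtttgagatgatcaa
Insig1: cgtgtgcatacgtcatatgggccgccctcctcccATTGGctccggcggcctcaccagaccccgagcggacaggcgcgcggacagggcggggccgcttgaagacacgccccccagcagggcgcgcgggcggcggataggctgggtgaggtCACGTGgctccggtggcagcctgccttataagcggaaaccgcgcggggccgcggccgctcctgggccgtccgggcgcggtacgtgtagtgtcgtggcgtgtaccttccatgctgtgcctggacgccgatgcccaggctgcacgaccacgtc
Insig2: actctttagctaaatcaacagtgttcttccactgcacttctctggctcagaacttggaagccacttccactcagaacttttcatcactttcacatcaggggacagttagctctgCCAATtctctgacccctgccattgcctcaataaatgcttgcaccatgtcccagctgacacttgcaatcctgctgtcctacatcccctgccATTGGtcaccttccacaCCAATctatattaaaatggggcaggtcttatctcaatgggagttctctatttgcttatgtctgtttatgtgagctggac
The Hmgcs1 window held 4 CCAAT matches and 1 TCACNCCAC match. The Ebp window held 2 CCAAT matches, the Insig1 window 1 CCAAT and 1 CACGTG match, and the Insig2 window 3 CCAAT matches. The other Insig2 windows, not shown, held 0 matches of any of the motifs.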

How the data were processed

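The deposited values are the authors' counts of reads by gene symbol, not normalized, with 1 library per substrate, made from paired-end reads that the methods call strand-specific. The kit is TruSeq in the methods and SMARTER in the sample labels. The submitters' processing notes list TopHat, edgeR and the builds mm10 and hg19, with no role given. The counting tool and annotation are not given in the sources used here. The substrate of each library was taken from its labels.

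Lines sharing a symbol were summed (23282 lines, 23238 symbols). CPM values were scaled with TMM factors of 1.02, 1.04 and 0.943 for TCP, GelMA and GelMA-PSS (Python 3.11.15, numpy 2.4.6, pandas 2.3.3), checked against edgeR 4.0.16 in R 4.3.3. Total counts ranged from 87071144 to 192171443. The filter kept genes that reached a CPM of 1 in any library, and ratios were taken with a pseudocount of 1. The threshold was 2-fold, as in the methods; 1.5-fold, the alternative used, is also stated in the study's text. No test was run. Intervals came from scipy 1.17.1. GENCODE vM21 (GRCm38) gave gene positions, and length and GC content of the transcript with the longest coding sequence; 22197 symbols matched directly, 662 through older symbols, and 379 did not match. The correction subtracted 2 successive loess fits (span 0.3, statsmodels 0.14.6) on log2 length and then GC content. The TMM scaling, the ratios, the 2-fold call against both controls and the removal of a length trend were first tested on simulated counts. No GC trend was simulated, and the other scalings, the intervals and the motif search were not tested in this way. Figures were drawn with matplotlib 3.10.9.

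The genes named were, in each role, those with the highest and the lowest ratio of GelMA-PSS to the mean of the controls, any of the 41 past 2-fold, and in each other list the 3 with the largest such ratio in either direction. A further list is not reported here. Members and lists were chosen with earlier results of these data known. Alternatives were median-of-ratios scaling, CPM without TMM factors, TPM, pseudocounts of 0.1 and 5, both filters, a threshold of 1.5-fold, symbols listed once and the length and GC correction. The correction with the longest transcript was added after seeing the data.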

Additional observations from a re-analysis of the deposited data

How the results depend on the processing

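Of 25 results, all kept their value within the limits set under median-of-ratios scaling, pseudocounts of 0.1 and 5, no filter, a CPM of 1 or more in all 3 libraries, and symbols listed once. The count of 8 mevalonate genes and 11 genes from squalene to cholesterol lower in GelMA than in TCP was the same under every alternative. The causes of the differences below were not tested. Depth limits Acacb most, with 111 counts in TCP and GelMA. No paired analysis was possible because each substrate has 1 library.

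Without TMM factors, 1 SREBP system gene, 5 fatty acid genes and 4 genes from squalene to cholesterol lay above their GelMA level in GelMA-PSS (41.3% of all genes), the median ratio of the 41 genes was -0.10 in GelMA-PSS against GelMA and -0.19 against TCP, and 23 genes lay below both controls, as did 49.4% of all genes. With TPM, 1 SREBP system gene, 0 fatty acid genes, 1 gene from squalene to cholesterol and 3 mevalonate genes lay higher in GelMA-PSS than in GelMA (19.2% of all genes), and the medians were -0.11 in GelMA against TCP, -0.37 in GelMA-PSS against GelMA and -0.50 against TCP. With TPM 1 of the 41 genes lay above both controls (15.2% of all genes) and 34 below (72.3%), and 2 were lower past 2-fold against GelMA (7.9%), 6 against TCP (8.0%) and 1 against both (4.8%). The all-gene medians with TPM were -0.36 against GelMA and -0.31 against TCP, so these counts are not to be read alone. Above both controls with TPM were 4 genes of fatty acid oxidation, 2 of uptake and storage and 1 of sterol export and storage.

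At 1.5-fold, 1 gene was higher in GelMA-PSS than in GelMA and 1 higher than in TCP, 1 was lower in GelMA than in TCP, 2 were lower in GelMA-PSS than in GelMA, 6 lower than in TCP and 1 lower than in both. After the length and GC correction 8 genes of fatty acid oxidation lay above both controls, also 8 with the longest transcript, an alternative chosen after seeing the data, under which 1 gene, Ebp, was lower past 2-fold in GelMA-PSS than in TCP. Of 78 ratios of single genes, the sign changed in 17 with TPM, 8 without TMM factors, 12 under each correction and 2 with median-of-ratios scaling. It changed in 0 under the others, among which the filter on all 3 libraries left 75 ratios.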

Other observations

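Per length, the order of abundance among the 41 genes was similar at its ends in the 3 libraries. Fdps and Fads3 were the most abundant in each, and Acacb the least abundant, at 0.104 CPM per kb in TCP, 0.139 in GelMA and 0.160 in GelMA-PSS. For 4 genes the counting interval of the ratio included 0 in GelMA against TCP (Acly, Acss2, Fads2, Acsl4). It did so for 6 in GelMA-PSS against GelMA (Cyp51, Sc5d, Stard4, Acss2, Acacb, Fads1) and for 4 in GelMA-PSS against TCP (Acat2, Lbr, Nsdhl, Acss2).

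By annotation on GRCm38, 24 of the 41 genes overlap another gene. The overlap is with a protein-coding gene on the same strand for 3 of them (Acsl3, Fdps, Tm7sf2) and on the opposite strand for 9 (Acaca, Acss2, Cyp51, Elovl1, Fdft1, Ggps1, Lbr, Mvd, Srebf1).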
